A study of Homo sapiens with 30 samples.

Results

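The Notch pathway is described here through the chromatin around 7 of its genes: the ligand genes DLL1 and JAG1, the receptor genes NOTCH1 and NOTCH2, the DNA-binding factor gene RBPJ, and the target genes HES1 and HEY1. Open chromatin was profiled with ATAC-seq, an assay whose transposase cuts and tags accessible DNA. A deposited region was taken as a member when it lay at least partly within 100 kb of the hg19 start site of one of these genes. This gave 110 of the 89929 regions that the authors listed as different between genotypes, and 28 of the 22974 regions that they had placed in 9 clusters of control peaks. Within these lists the choice used position only. The authors had selected the differential regions themselves on measured values. A window of this size can hold other genes. In RefSeq's GRCh38.p14 annotation the window holds SEC16A at NOTCH1, SEC22B at NOTCH2, FAM120B at DLL1, SLX4IP at JAG1 and LOC102724877 at HES1. No other protein-coding gene was counted in the windows of HEY1 and RBPJ. A region is therefore described by its place and not assigned to the named gene.

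The cells were HUES8, an established human embryonic stem cell line, differentiated in culture along the pancreatic lineage. The 30 samples formed 10 groups of 3. HNF6-Knockout cells and wild-type control cells, called knockout and control below, were each sampled at 5 stages. HNF6, also named ONECUT1, encodes a homeodomain protein that regulates transcription in the embryonic pancreas and liver. ESC are the undifferentiated embryonic stem cells and DE is definitive endoderm. GT is the gut tube stage, PE the endoderm of the pancreas, and PP the progenitors that follow it. No other allele or agent is named in the labels. How the knockout was made, how many clones it comes from and whether replicates were separate differentiations is not stated in those labels. The spread between replicates may therefore be technical.

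Notch signalling passes between touching cells. A ligand on one cell, such as DLL1 or JAG1, binds a receptor such as NOTCH1 or NOTCH2 on its neighbour, and proteases then release the receptor's intracellular part. That part enters the nucleus and joins RBPJ, which sits on DNA at the core letters TGGGAA, and target genes such as HES1 and HEY1 are switched on. HES1 and HEY1 encode transcriptional repressors. In mouse pancreas, Dll1 is expressed in early endocrine precursors, and Hes1 holds progenitors back from endocrine fate by repressing Neurog3. In people, loss of 1 copy of JAG1 or NOTCH2 causes Alagille syndrome, with too few bile ducts.

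The promoters of HES1 and NOTCH1 are shown because a region listed as different covered the start site of each: at DE for HES1 and at ESC for NOTCH1. A listed region also covered the start site at DLL1, HEY1 and RBPJ, whose promoters are not shown. The hg19 start sites were taken in whole kb, so whether a region covers one is approximate, here and below. RBPJ has several transcript starts, and which of them the RefSeq entry gives was not matched to hg19. Both sequences are the 250 bases before the start in RefSeq's GRCh38.p14 annotation, given 5′ to 3′ along the gene. RefSeq's promoter table held 5 of the 7 genes. HES1 lies on the plus strand of chromosome 3, at chr3:194135898-194136147, and NOTCH1 on the minus strand of chromosome 9, at chr9:136546049-136546298. Capitals mark the core TGGGAA, searched on both strands.
HES1: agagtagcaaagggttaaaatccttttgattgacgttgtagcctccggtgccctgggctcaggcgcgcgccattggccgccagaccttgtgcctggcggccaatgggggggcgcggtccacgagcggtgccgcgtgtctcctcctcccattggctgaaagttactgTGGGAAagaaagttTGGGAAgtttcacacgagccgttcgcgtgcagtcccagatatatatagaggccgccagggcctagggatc
NOTCH1: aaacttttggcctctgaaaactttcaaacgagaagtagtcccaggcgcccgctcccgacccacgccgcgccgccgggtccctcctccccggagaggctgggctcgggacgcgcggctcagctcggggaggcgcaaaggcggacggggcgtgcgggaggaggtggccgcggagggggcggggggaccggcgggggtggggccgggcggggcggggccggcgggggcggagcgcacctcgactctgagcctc
HES1 holds 2 of these cores, both on the plus strand, beginning 84 and 70 bases before the start. The NOTCH1 stretch holds 0. The core is in 20.8% of the 35116 RefSeq promoters of the same length. The HNF6 core, searched as ATCGAT or ATCAAT on both strands, is in neither of these stretches and in 6.19% of all promoters. These matches describe letters only. The GRCh38.p14 positions cannot be set against the hg19 positions of the regions below.

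Each listed region carries 3 whole numbers for knockout and 3 for control cells, a log2 ratio and a -log10 p that is never under 5, all from the authors' deposited tables. The labels do not say if these numbers were scaled, so they are called values below, and the depth behind them is unknown. A log2 ratio here is that of the knockout mean over the control mean, with 1 added to each. The listed regions had been selected for a difference, so their values are a description and were not tested again. For 3 samples a genotype, the smallest two-sided p of an exact permutation test on 1 region is 0.1. In bulk samples a change in the share of cells with an open region and a change in how open it is per cell cannot be told apart.

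The files pair no region with the targeted gene by name. On chromosome 15, where ONECUT1 lies, regions were picked by limits of 50 for the control mean and 2% of it for the knockout mean. Between 53072851 and 53082400, 6 control-list regions passed, at 4 of the 5 stages. Their knockout means were at most 1.88% of the control mean, but a share under the limit was fixed by the choice. At ESC the values there were 18, 17 and 9 in knockout against 2718, 3002 and 2779 in control cells, from 53075501 to 53082400. No region of this kind was listed there at GT.

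Of the 110 regions at the Notch loci, 80 were higher in knockout and 30 in control cells, so that 72.7% were higher in the knockout. Over all listed regions this share was 68.1%, with 61270 higher in knockout and 28659 in control cells. The balance differed by stage. At ESC 15 regions were higher in knockout and 8 in control cells. DE had 13 and 9, and GT had 7 and 0. At PE there were 12 in each direction. PP stood out by number, with 33 regions higher in knockout cells and 1 in control cells.

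The authors numbered their candidate regions, and the largest number of each stage gives a background, although the sources do not say that every candidate was tested. Of the 425257 candidates at ESC, 2.71% were listed as higher in knockout and 2.01% as higher in control cells. These shares were 2.08% and 1.23% at DE, 0.859% and 0.318% at GT, 1.68% and 2.15% at PE, and 6.67% and 0.853% at PP. PP thus had the longest knockout list in the whole series as well as at the Notch loci. The windows were not alike at PP. NOTCH2, HEY1 and RBPJ had 0 regions higher in knockout, among at most 61, 63 and 55 candidates. JAG1 had 1 among at most 97, and the shares at DLL1, NOTCH1 and HES1 are given below.

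**Figure D1:**
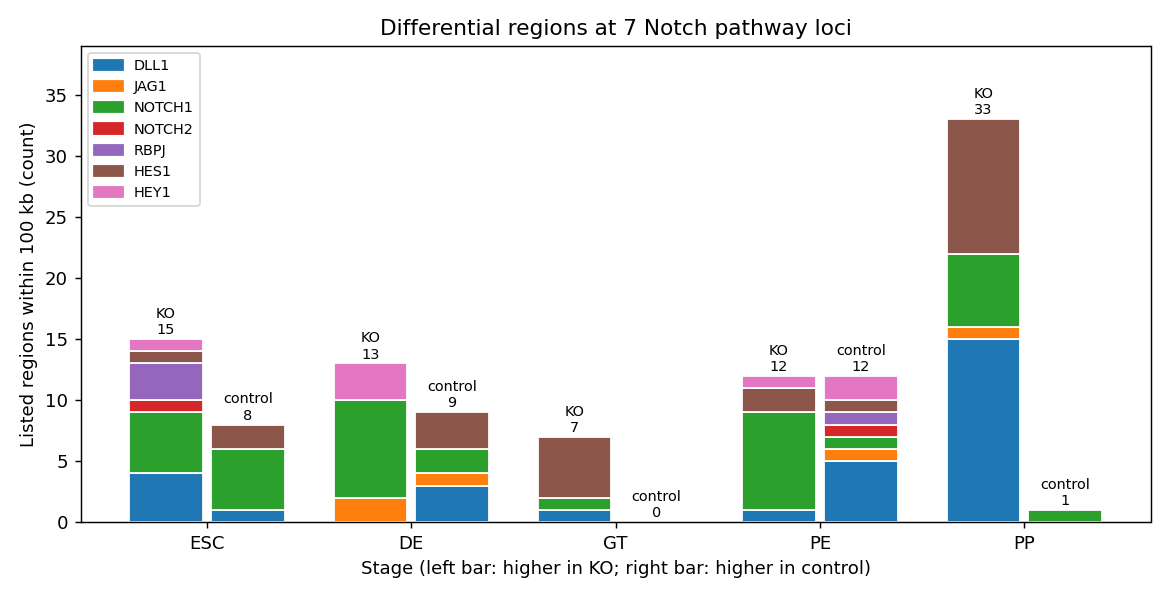
Number of listed regions (vertical axis) within 100 kb of each start site, by stage, with regions higher in knockout left of regions higher in control. The PP stage holds 33 regions higher in knockout, of which 15 lie at DLL1 and 11 at HES1, and 1 region higher in control.

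Counted by locus rather than by region, the dense NOTCH1 window weighs no more than the others. At ESC 6 of the 7 loci had a region higher in knockout and 3 had one higher in control cells. Of 12574 stretches of 200 kb that hold any deposited region, 53.6% and 28.2% did. At DE the loci numbered 3 and 4, beside 39.7% and 38.8% of the stretches. GT had 3 loci and 0, beside 33.2% and 18.1%. At PE 4 loci had a region higher in knockout and all 7 had one higher in control cells, beside 24.3% and 37.0% of the stretches. PP had 4 loci and 1, beside 64.5% and 17.0%. No test was made of any of these counts.

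The differences were moderate. Members higher in knockout had a median log2 ratio of 0.84, beside 0.96 over all regions of the knockout lists. Members higher in control had a median of -0.72, beside -0.9. All 3 knockout values lay above all 3 control values in 60 of the 80 regions higher in knockout, and this was so in 78.4% of all regions of those lists. The reverse held in 18 of the 30 regions higher in control, beside 78.6% of all regions of those lists. A change of at least 2-fold was reached by 33 of the 110 regions. No share of 2-fold changes over all listed regions is given here, for this count or for those by locus below.

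DLL1, whose product is a Delta-type ligand, had 21 regions higher in knockout and 9 higher in control cells. Its counts were unlike at the 2 pancreatic stages. At PE 1 region was higher in knockout and 5 in control cells, while at PP 15 were higher in knockout and 0 in control cells. At PE the shares of the candidates in the DLL1 window were 0.581 to 1.25% for knockout and 2.91 to 6.25% for control, beside 1.68% and 2.15% over the genome. The 15 regions at PP made up 13.3 to 14.4% of the candidates, beside 6.67% over the genome, where the control share was 0.853%. The range arises because the candidates at the edges of a window were not listed.

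The PP regions at DLL1 lay on both sides of the start site, 6 upstream and 9 downstream. Their log2 ratios ran from 0.36 to 3.25 with a median of 1.05, and 9 of the 15 reached 2-fold. The genotypes did not overlap in 10 of them, beside 78.4% of all regions of the knockout lists. All 9 regions past 2-fold were weakly open in control cells, with control means of at most 99.7. The highest ratio, 3.25, belonged to a stretch of 150 bp from 170608751 to 170608900 on chromosome 6, where knockout cells had 43, 41 and 8 and control cells 4, 2 and 1. Such low values make that ratio imprecise.

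The DLL1 region with the highest -log10 p of the authors, 16.51, was wide and strongly open at PP. From 170532551 to 170535950 its values were 1621, 1186 and 1260 in knockout against 849, 1076 and 838 in control cells, a log2 ratio of 0.56. Knockout samples lay above all control samples. One stage earlier, at PE, the stretch from 170534251 to 170535350 inside it had 775, 695 and 597 in knockout against 731, 924 and 1065 in control cells, a log2 ratio of -0.40. There the groups overlapped, because 1 knockout sample exceeded the lowest control sample.

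Of the DLL1 regions higher in control, the one with the highest -log10 p, 15.84, was at PE. It ran from 170544951 to 170545950, 55 kb downstream of the start, with 326, 264 and 291 in knockout against 533, 378 and 742 in control cells. All knockout samples were lower, and the log2 ratio was -0.91. A region of control cluster 8 lies within it. The other 4 PE regions higher in control lay 10.37 to 68.3 kb downstream, with log2 ratios between -0.40 and -1.59.

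At the DLL1 start itself, a region from 170598601 to 170600350 had 843, 1179 and 1016 in knockout against 749, 755 and 804 in control ESC, a log2 ratio of 0.40. The groups did not overlap. At PP, just upstream from 170601301 to 170602350, knockout cells had 335, 407 and 285 and control cells 180, 305 and 180, a log2 ratio of 0.62. One control sample there lay above the lowest knockout sample.

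**Figure D2:**
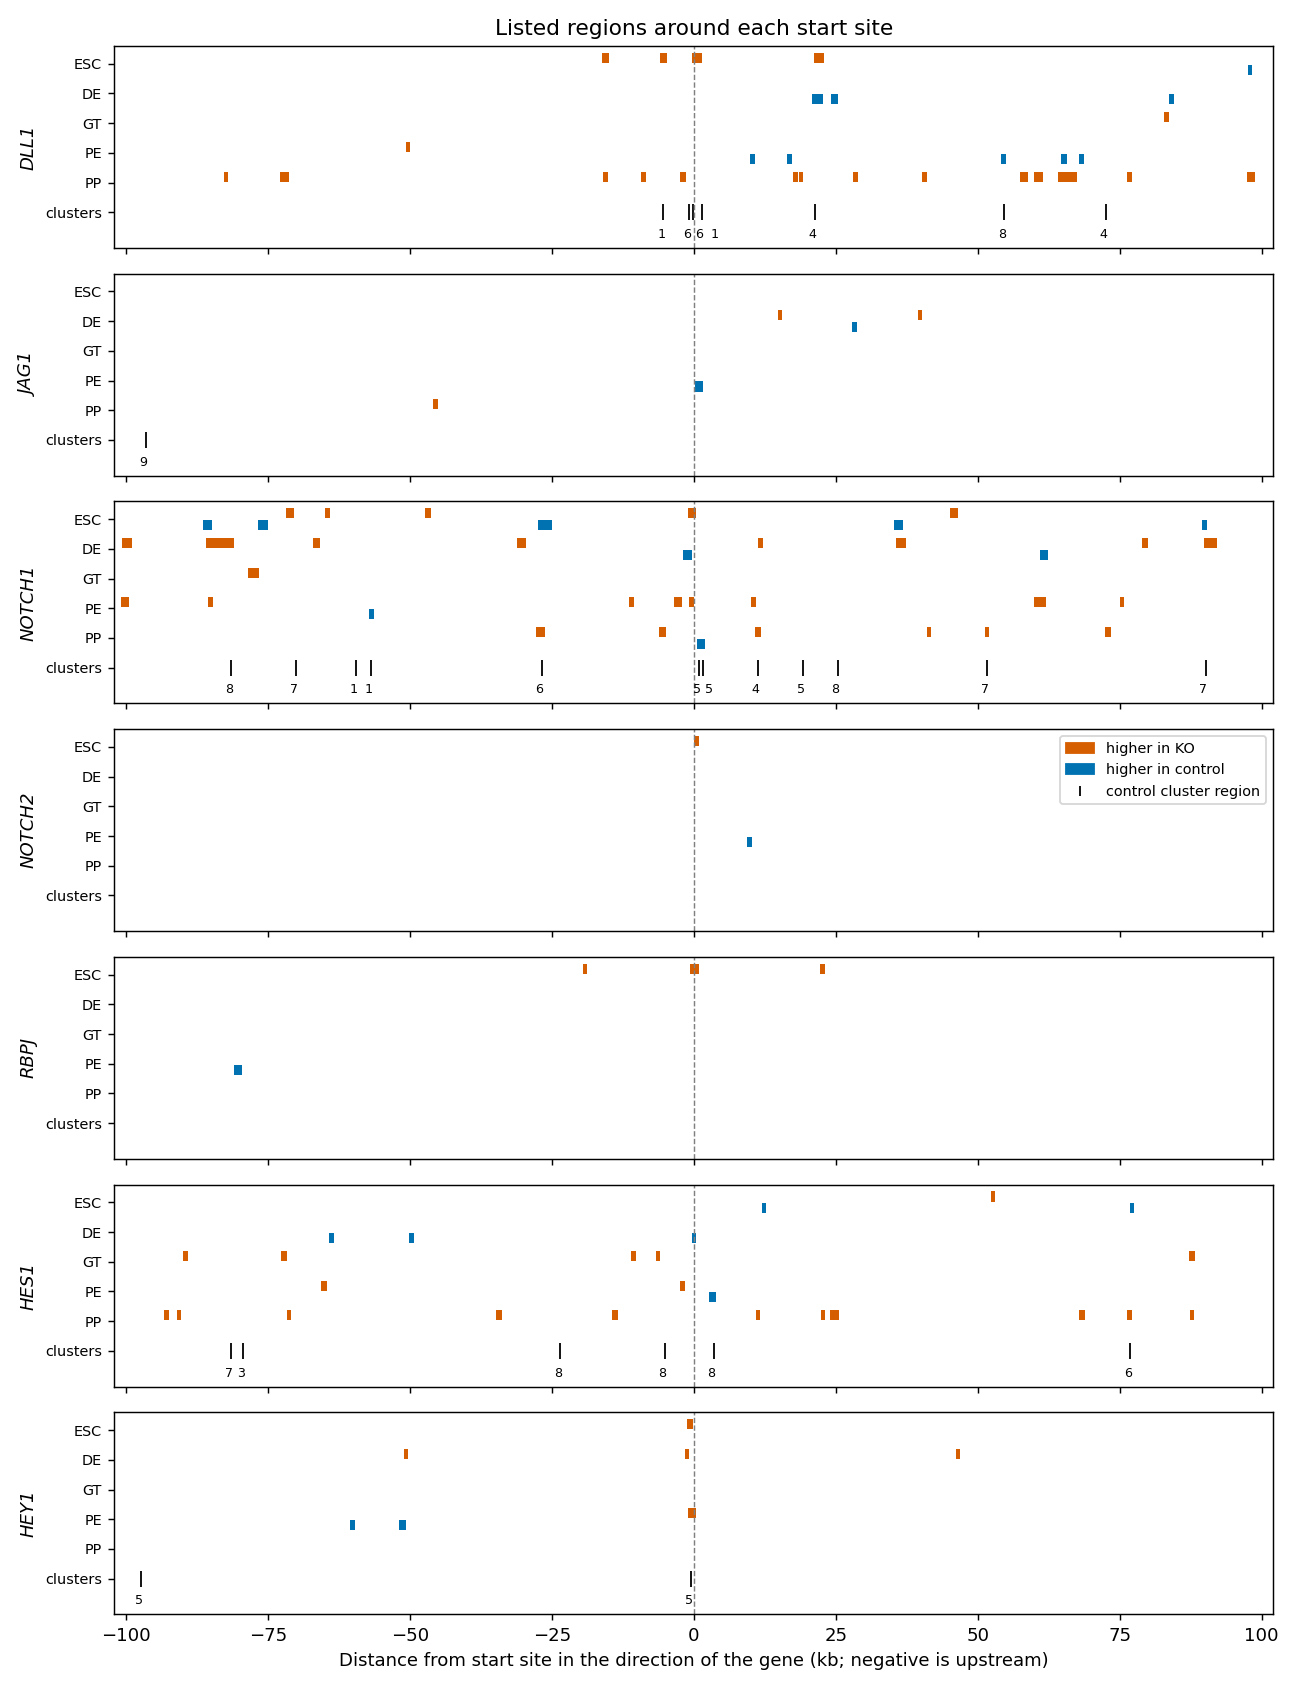
Position of each listed region (horizontal axis, kb from the start site, negative upstream) by stage for the 7 genes; orange marks lie higher in knockout and blue marks higher in control, and black ticks with numbers are control cluster regions (narrow regions are drawn wider than they are). At DLL1 the PE row is mostly blue, with 1 region higher in knockout and 5 in control, and the PP row is orange throughout, with 15 regions.

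JAG1, which encodes a Jagged-type ligand, had 3 regions higher in knockout and 2 higher in control cells. The change with the highest -log10 p, 10.53, was at PP, 45 kb upstream. From 10699251 to 10699650 on chromosome 20, knockout cells had 115, 50 and 91 and control cells 5, 32 and 9, a log2 ratio of 2.40. Knockout samples were all higher, at low control values.

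The region higher in control with the highest -log10 p at JAG1, 6.08, was at DE. From 10625301 to 10626150 the values were 131, 51 and 83 in knockout against 178, 184 and 176 in control cells, a log2 ratio of -1.01 without overlap. At PE a region just inside the gene, from 10652401 to 10653750, had 704, 687 and 661 in knockout against 659, 1094 and 926 in control cells, a log2 ratio of -0.38. In this second case 1 control sample was the lowest of all 6.

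NOTCH1, a receptor gene, had the most listed regions of the 7 loci, with 28 higher in knockout and 9 in control cells. Most were small changes. The median log2 ratio was 0.59 for those higher in knockout and -0.51 for those higher in control, and 3 of the 37 reached 2-fold. The genotypes did not overlap in 24 of the 28 and in 4 of the 9. Over all regions of the knockout and control lists this held in 78.4% and 78.6%. Regions higher in knockout made up 1.90 to 2.28% of the candidates of the window at ESC, beside 2.71% over the genome, and 3.67 to 4.08% at DE, beside 2.08%. At PE they made up 4.42 to 4.65%, beside 1.68%, and at PP 2.03 to 3.82%, beside 6.67%.

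The NOTCH1 start site went in different directions by stage. At ESC the region from 139439551 to 139441000 on chromosome 9, which covers the start, had 784, 1039 and 876 in knockout against 547, 566 and 763 in control cells, a log2 ratio of 0.52. At PE the stretch from 139440101 to 139440600 had 551, 626 and 545 in knockout against 396, 350 and 322 in control cells, a log2 ratio of 0.69. Both were higher in every knockout sample than in any control sample.

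DE gave the other direction. From 139440351 to 139441850 the values were 508, 526 and 379 in knockout against 890, 662 and 392 in control cells, a log2 ratio of -0.46, and the groups overlapped through 1 control sample. At PP the region just inside the gene, from 139437951 to 139439450, had 670, 538 and 537 in knockout against 782, 996 and 908 in control cells. Its log2 ratio was -0.62 without overlap, and its -log10 p of 13.34 was the highest of the 37 regions of the locus. It was also the 1 region higher in control at PP among the 7 loci, and it covers 2 regions of control cluster 5.

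Among the regions higher in knockout at NOTCH1, the highest -log10 p, 11.9, belonged to a wide stretch at DE, upstream from 139520951 to 139525950. Knockout cells had 1713, 1652 and 1961 and control cells 1413, 1333 and 1252, a log2 ratio of 0.41. No control sample reached the lowest knockout sample.

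NOTCH2, the second receptor gene, had 1 region in each direction. At its start, from 120611151 to 120611950 on chromosome 1, knockout ESC had 259, 293 and 345 and control ESC 136, 202 and 226, a log2 ratio of 0.67 without overlap. At PE the stretch from 120601951 to 120602350 had 100, 197 and 111 in knockout against 165, 274 and 291 in control cells, a log2 ratio of -0.83. Here 1 knockout sample lay above the lowest control sample.

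RBPJ, the DNA-binding partner of the receptors, had 3 regions higher in knockout, all at ESC, and 1 higher in control, at PE. The start site, from 26320351 to 26321850 on chromosome 4, had 947, 1074 and 1127 in knockout against 826, 870 and 765 in control ESC, a log2 ratio of 0.35. The distal PE region, from 26240101 to 26241400, had 508, 370 and 470 in knockout against 665, 532 and 847 in control cells, a log2 ratio of -0.60. The genotypes did not overlap in any of the 4 regions, which was so in 78.4% and 78.6% of all regions of the knockout and control lists.

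HES1, the repressor gene that Notch switches on, had 19 regions higher in knockout and 6 in control cells. At PP 11 were higher in knockout and 0 in control cells. These 11 made up 9.65 to 12.6% of the candidates of the window, beside 6.67% over the genome. The log2 ratios at PP ran from 0.52 to 1.80 with a median of 0.97, and 5 of the 11 reached 2-fold. The groups did not overlap in 8, beside 78.4% of all regions of the knockout lists. GT had the next most listed regions at HES1, 5 higher in knockout and 0 in control cells. These made up 1.39 to 3.18% of the candidates of the window, beside 0.859% over the genome. The genotypes overlapped in none of these 5.

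The HES1 start site differed at DE, in the other direction. From 193853701 to 193854400 on chromosome 3 the values were 254, 168 and 202 in knockout against 379, 360 and 337 in control cells, a log2 ratio of -0.78. Each knockout sample was lower than each control sample. With a -log10 p of 7.65 it ranked highest among the HES1 regions higher in control, and the promoter printed above, with its 2 TGGGAA cores, belongs to this gene.

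At PE a region ending upstream of the HES1 start, from 193851501 to 193852500, had 842, 901 and 1061 in knockout against 566, 791 and 831 in control cells, a log2 ratio of 0.36. The highest -log10 p among regions higher in knockout at this locus, 11.19, was also at PE. It lay 65 kb upstream, from 193788301 to 193789450, with 852, 1110 and 1051 in knockout against 646, 663 and 773 in control cells, a log2 ratio of 0.53. Neither region overlapped between genotypes.

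HEY1, the other target gene, had 5 regions higher in knockout and 2 higher in control cells, on chromosome 8. Its start site was listed as higher in knockout at 3 stages. At ESC, from 80680101 to 80681250, knockout cells had 512, 760 and 711 and control cells 425, 350 and 584, a log2 ratio of 0.54. At DE, from 80680801 to 80681550, the values were 166, 168 and 138 in knockout against 99, 70 and 44 in control cells, a log2 ratio of 1.14. The groups did not overlap at DE, while at ESC 1 control sample exceeded the lowest knockout sample.

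At PE, from 80679601 to 80680950, the HEY1 start had 876, 1397 and 2015 in knockout against 1051, 1139 and 1243 in control cells, a log2 ratio of 0.32. One knockout sample was the lowest of the 6. A distal stretch of HEY1 changed direction between stages. At DE, from 80730251 to 80731050, knockout cells had 294, 170 and 130 and control cells 105, 53 and 168, a log2 ratio of 0.86. At PE, from 80730601 to 80731950, knockout cells had 291, 173 and 265 and control cells 266, 430 and 593, a log2 ratio of -0.82 with a -log10 p of 10.22. The genotypes overlapped at both stages.

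**Figure D3:**
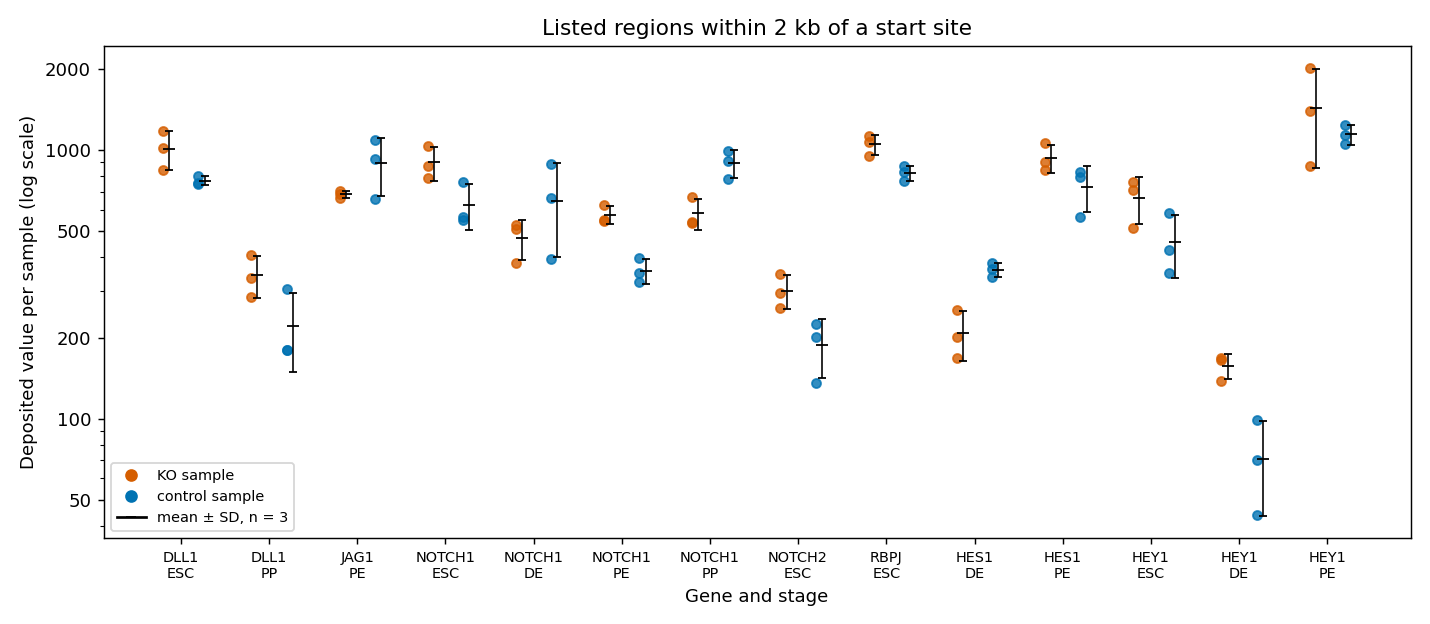
Values of the 14 regions within 2 kb of a start site, each sample as a point with the mean ± SD of its group (n = 3), knockout (KO) left of control, on a log axis of the deposited value. Of these regions 10 were higher in knockout and 4 in control, and the groups do not overlap in 9. Over all regions of the knockout and control lists, 78.4% and 78.6% do not overlap.

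The start sites can be set side by side by stage, although no share over the start sites of all genes was computed. Within 2 kb of the start, 5 of the 7 genes had a region higher in knockout at ESC, namely DLL1, HEY1, NOTCH1, NOTCH2 and RBPJ, and 0 had one higher in control cells. At DE this was 1 gene (HEY1) and 2 genes (HES1 and NOTCH1). At GT there was 0 in either direction. PE had HES1, HEY1 and NOTCH1 higher in knockout and JAG1 higher in control, and PP had DLL1 and NOTCH1 in those directions. Start-site changes were small, with a median absolute log2 ratio of 0.53, and 1 of the 14 regions reached 2-fold. The 96 regions farther away had a median of 0.85, and 32 of them reached 2-fold. In every region that reached 2-fold, near or far, the lower group mean was at most 107. All start-site regions except that of HEY1 at DE lay above this level. Near and far regions were not compared at a like level.

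Regions that overlapped between stages were merged, which gave 89 positions. Of these, 72 were listed at 1 stage and 17 at 2 or more, 4 of them at 3 stages. Of the 17, 5 kept 1 direction, in every case higher in knockout, and 12 (70.6%) were listed in opposite directions at different stages. Over the whole series, merged in the same way, 9919 of 77186 positions were listed at 2 or more stages, and 48.0% of these were in opposite directions. Positions that stayed higher in knockout made up 42.2% of them, beside 29.4% at the Notch loci. Those that stayed higher in control made up 9.79%. The difference between these shares was not tested, and 9 of the 17 positions lie at NOTCH1. In 7 of those 12 the control-side listing was at ESC, in 3 at DE and in 2 at PE. NOTCH1 held 7 of the 12, DLL1 3, and HES1 and HEY1 1 each.

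**Figure D4:**
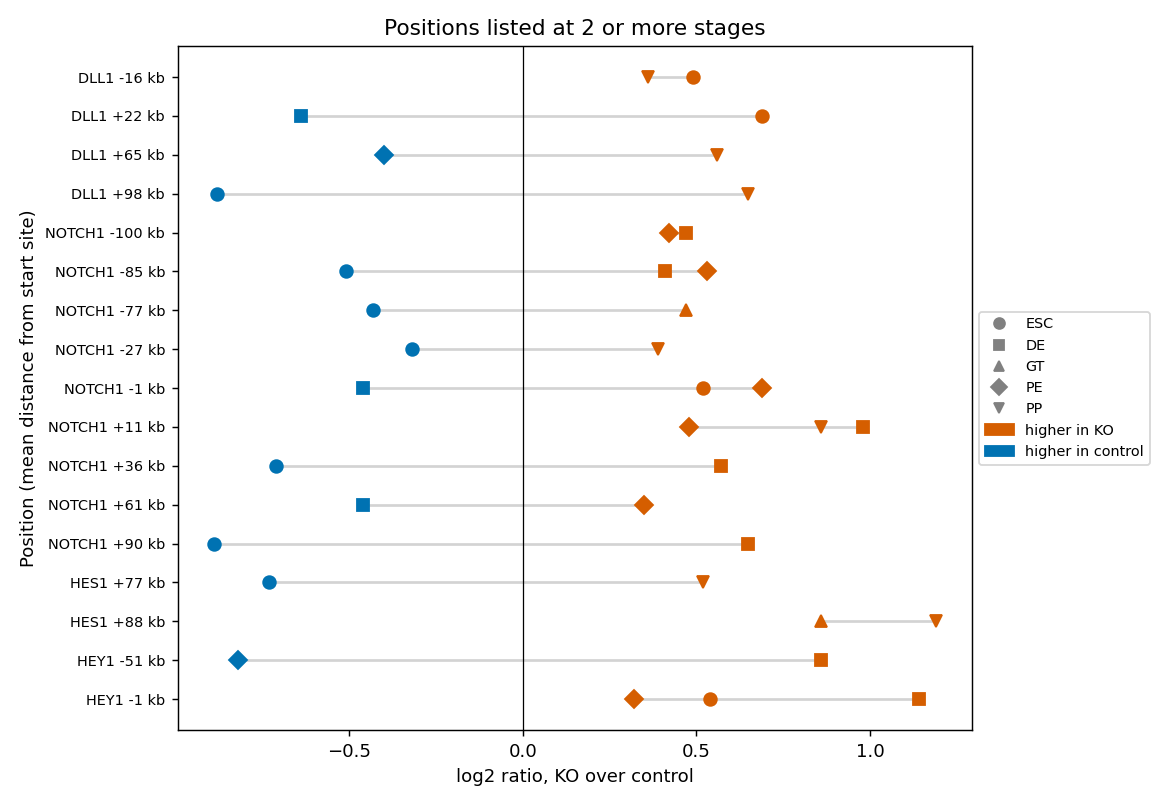
Log2 ratio of knockout over control (axis in log2 units) at each of the 17 positions listed at 2 or more stages, by stage. In 12 of the 17 the points fall on both sides of 0.

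Several NOTCH1 positions were listed for control at ESC and for knockout later. About 90 kb downstream, knockout ESC had 45, 105 and 150 and control ESC 240, 131 and 188 from 139349751 to 139350400, a log2 ratio of -0.89. At DE the stretch from 139347951 to 139350100 had 647, 481 and 629 in knockout against 427, 445 and 243 in control cells, a log2 ratio of 0.65. The groups overlapped at ESC and not at DE. Another lay 36 kb downstream. There ESC had 283, 228 and 277 in knockout against 535, 315 and 439 in control cells from 139403201 to 139404650, a log2 ratio of -0.71 without overlap. DE had 647, 493 and 692 in knockout against 440, 523 and 274 in control cells from 139402551 to 139404450, a log2 ratio of 0.57 with overlap.

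Upstream of NOTCH1, the strongly open stretch at 27 kb was also lower in knockout ESC. From 139464951 to 139467350 it had 1905, 2176 and 1343 in knockout against 2718, 2082 and 1963 in control ESC, a log2 ratio of -0.32 with overlap. At PP, from 139466201 to 139467800, it had 1644, 1905 and 1603 in knockout against 969, 1564 and 1407 in control cells, a log2 ratio of 0.39 without overlap. A region of control cluster 6 lies in it.

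The NOTCH1 stretch at 76 to 78 kb upstream had 646, 473 and 527 in knockout against 844, 652 and 716 in control ESC from 139515051 to 139516650, a log2 ratio of -0.43. At GT, from 139516551 to 139518550, it had 847, 597 and 719 in knockout against 474, 510 and 577 in control cells, a log2 ratio of 0.47. Neither overlapped between genotypes, but the regions of the 2 stages share only their edges. Further out, the wide DE region described above had counterparts at PE, from 139524751 to 139525350, with 618, 547 and 711 in knockout against 473, 378 and 449 in control cells. ESC gave the other direction there, with 550, 452 and 397 in knockout against 676, 787 and 528 in control cells from 139524901 to 139526350. The log2 ratios were 0.53 at PE without overlap and -0.51 at ESC with overlap.

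At 61 kb downstream of NOTCH1, DE and PE differed in direction. DE, from 139377551 to 139379000, had 493, 462 and 491 in knockout against 992, 503 and 489 in control cells, a log2 ratio of -0.46, with 1 high control sample and overlapping groups. PE, from 139378001 to 139380050, had 2106, 1764 and 2136 in knockout against 1468, 1617 and 1613 in control cells, a log2 ratio of 0.35 without overlap.

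The other 2 NOTCH1 positions kept 1 direction. About 11 kb downstream the region was higher in knockout at 3 stages, and the groups never overlapped. At DE, from 139428001 to 139428500, knockout cells had 233, 146 and 140 and control cells 75, 70 and 117, a log2 ratio of 0.98. At PE, from 139428951 to 139429900, they had 678, 522 and 530 against 366, 484 and 388 in control cells, a log2 ratio of 0.48. At PP, from 139428101 to 139429300, they had 454, 433 and 359 against 317, 195 and 171 in control cells, a log2 ratio of 0.86. A region of control cluster 4 lies there. The second, 100 kb upstream, was higher in knockout at DE and PE. DE had 618, 480 and 667 in knockout against 420, 540 and 315 in control cells from 139538951 to 139540650, a log2 ratio of 0.47 with overlap. PE had 792, 661 and 600 in knockout against 507, 562 and 463 in control cells from 139539351 to 139540850, a log2 ratio of 0.42 without overlap.

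At DLL1, the stretch 98 kb downstream had 113, 51 and 129 in knockout against 200, 166 and 177 in control ESC from 170501751 to 170502300, a log2 ratio of -0.88. At PP, from 170501151 to 170502650, it had 438, 281 and 367 in knockout against 225, 217 and 248 in control cells, a log2 ratio of 0.65. The genotypes separated fully at both stages, in opposite directions. The stretch 22 kb downstream did so with the stages the other way round. ESC had 391, 495 and 531 in knockout against 279, 299 and 300 in control cells from 170577151 to 170578850, a log2 ratio of 0.69. DE had 395, 446 and 467 in knockout against 520, 755 and 760 in control cells from 170577251 to 170579100, a log2 ratio of -0.64. This position covers a region of control cluster 4.

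A DLL1 position 16 kb upstream was higher in knockout at both of its stages. ESC had 807, 844 and 787 in knockout against 690, 544 and 503 in control cells from 170614951 to 170616200, a log2 ratio of 0.49 without overlap. PP had 659, 1038 and 951 in knockout against 648, 842 and 578 in control cells from 170615051 to 170616050, a log2 ratio of 0.36 with overlap.

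HES1 had 2 such positions. The one 77 kb downstream had 173, 200 and 201 in knockout against 392, 324 and 236 in control ESC from 193930851 to 193931400, a log2 ratio of -0.73 without overlap. At PP, from 193930201 to 193931200, it had 537, 386 and 456 in knockout against 238, 434 and 287 in control cells, a log2 ratio of 0.52 with overlap. The one 88 kb downstream was higher in knockout at GT and PP without overlap. GT had 317, 254 and 166 in knockout against 134, 157 and 114 in control cells from 193941201 to 193942250, a log2 ratio of 0.86. PP had 147, 190 and 183 in knockout against 43, 78 and 105 in control cells from 193941351 to 193942100, a log2 ratio of 1.19.

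The 28 control cluster regions at the loci give the control landscape, although the meaning of the cluster numbers is not stated in the labels. NOTCH1 held 12, DLL1 7, HES1 6, HEY1 2 and JAG1 1, and NOTCH2 and RBPJ 0. Cluster 8 held 6 of the 28 and cluster 5 held 5, of which 3 lay at NOTCH1 and 2 at HEY1. Over all cluster regions, 12.3% belong to cluster 8 and 3.08% to cluster 5. At least 1 list overlapped 16 of the 28, beside 38.4% of all cluster regions. By list the overlap was highest for regions higher in knockout at ESC, with 5 of 28, beside 3.73% of all cluster regions. All of these but the region at HEY1 lay at DLL1. There the listed region at the start site overlapped neighbouring regions of clusters 1 and 6, and separate listed regions overlapped the others.

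**Figure D5:**
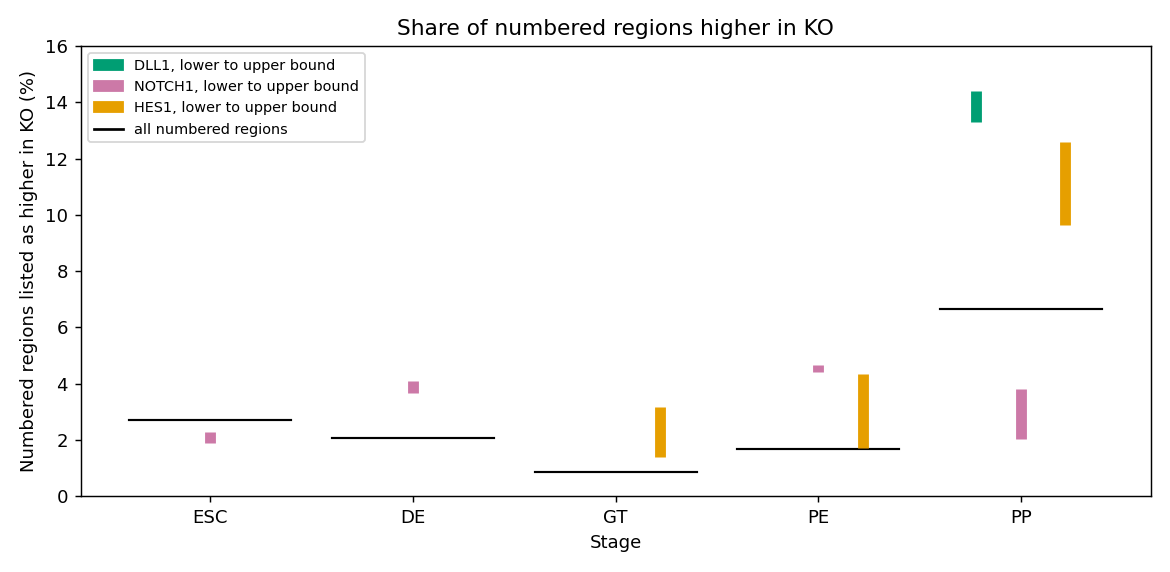
Share of the numbered candidate regions of each window listed as higher in knockout (percent, as the range allowed by the flanking numbers), for DLL1, NOTCH1 and HES1 at stages with 2 or more such regions, with the genome-wide share of each stage as a black line. DLL1 at ESC is left out because its lower bound is unknown. Stages with fewer such regions are not drawn, so the bars favour high shares. Among those left out, DLL1 and HES1 had 0 such regions at DE, beside 2.08% over the genome. DLL1 at PE, also left out, had 0.581 to 1.25%, beside 1.68%. At PP, DLL1 spans 13.3 to 14.4%, HES1 9.65 to 12.6% and NOTCH1 2.03 to 3.82%, beside 6.67% over the genome.

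For the wider pathway, 20 other Notch genes were counted in the same way. They had 497 listed regions, 325 higher in knockout and 172 in control cells, so that 65.4% were higher in the knockout. All 20 had a region higher in knockout and 19 had one higher in control at some stage. The shares of 200 kb stretches above are for single stages, so these counts pooled over stages have no background here. The most regions lay at HES4, with 28 higher in knockout and 32 in control cells, at the ligand gene JAG2, with 35 and 13, and at HES5, with 34 and 14. HES4 and HES5 belong to the same repressor family as HES1.

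At ESC, 6 of the 20 other genes had a start-site region higher in knockout and 3 had one higher in control cells. These counts were 6 and 1 at DE, 0 and 1 at GT, 5 and 1 at PE, and 2 and 0 at PP. No share over the start sites of all genes was computed. NRARP, whose product limits Notch signalling, had 1452, 1153 and 1277 in knockout against 740, 717 and 1004 in control ESC, a log2 ratio of 0.66. JAG2 had 659, 1239 and 820 in knockout against 591, 493 and 541 in control ESC, a log2 ratio of 0.74. Knockout samples lay above control samples in both. MAML1, a co-activator of the receptor complex, was listed for control at ESC and GT and for knockout at PE. Its PE values were 496, 711 and 659 in knockout against 393, 344 and 261 in control cells, a log2 ratio of 0.90 without overlap.

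The remaining start-site regions of the other genes had log2 ratios between -0.75 and 0.75. DTX1 had both ends of that range, with 181, 155 and 137 in knockout against 298, 280 and 217 in control cells at PE. At PP it had 370, 422 and 414 in knockout against 243, 286 and 188 in control cells. Its genotypes separated at both stages, lower in knockout at PE and higher at PP. HEY2, a relative of HEY1, was listed as higher in knockout at ESC and PP and higher in control at DE, with log2 ratios of 0.38, 0.64 and -0.53. Start-site regions higher in knockout were also listed for DLL3, HES4, HES5, LFNG, MAML3, NOTCH3 and RFNG. DLL4 and MFNG were higher in control at ESC and in knockout at DE.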

How the data were processed

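ATAC-seq samples of HNF6 knockout and control HUES8 cells at 5 stages were grouped by the titles in the labels. Bowtie2, MACS2 and the hg19 build are named in the submitters' processing notes, without versions or roles. The sources used here do not give the differential caller, a read shift for the transposase or a scaling. The authors deposited 10 lists of differential regions, with a log2 ratio, a -log10 p and 6 values per region, and 9 lists of control cluster regions named by number. Cluster numbers follow the names of the lists. Of the 6 values, the first 3 were read as knockout and the last 3 as control, from the direction of the lists; the deposited log2 runs control over knockout and equals minus the ratio used here within 5.0e-12.

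Regions were joined to start sites within 100 kb with Python 3.11.15, pandas 2.3.3 and numpy 2.4.6, checked on simulated regions. Figures used matplotlib 3.10.9. The members and lists were chosen with earlier results of these data known. All 7 genes are named. Values per sample are given for regions within 2 kb of a start site, for the region of highest -log10 p per locus and genotype, and for positions listed at 2 or more stages. Of the 20 other genes, those with a region within 2 kb and the 3 with most regions are named; the list is not the whole pathway, and an item left out of it is not reported here. Their start sites came from general knowledge and were compared only roughly with RefSeq, which gave their chromosomes. The strands of DLL1 and HEY1 also came from general knowledge. No test was run. Alternative windows, thresholds, pseudocounts, overlaps and left-out samples were tried. Neither the depth per sample nor its precision is known. No hg19 annotation was used here, so exons and introns are not named.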

Additional observations from a re-analysis of the deposited data

Results flagged for a closer look

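At 3 of the 12 positions listed in opposite directions, the genotypes separated fully at each of 2 stages. Of all single regions of the knockout and control lists, 78.4% and 78.6% separated. No share of such positions over the whole series was computed, so their number is not shown to be unusual. The difference between stages was not tested. At DLL1, 98 kb downstream, the log2 ratio of knockout over control was 0.65 at PP and -0.88 at ESC, 1.54 apart. At DLL1, 22 kb downstream, it was 0.69 at ESC and -0.64 at DE, 1.33 apart. At NOTCH1, 76 to 78 kb upstream, it was 0.47 at GT and -0.43 at ESC, 0.9 apart, and the regions of the 2 stages share only their edges.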

How the results depend on the processing

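Changing 1 choice at a time gave 111 alternatives, and the counts followed the window and the threshold. Values are given as knockout list, then control list. A window of 200 kb gave 26 regions for knockout ESC, 31 and 17 for DE, 16 and 3 for GT, 35 and 23 for PE, and 67 and 3 for PP, with 2 loci in the control GT list and 3 in the control PP list. A window of 50 kb gave 3 regions for control ESC, 7 for knockout DE, 2 for knockout GT at 1 locus, 6 and 5 for PE, with 4 loci in the control PE list, and 17 for knockout PP. Non-overlapping regions then numbered 32 and 9. With a -log10 p of at least 10, regions and loci fell to 0 and 0 in both directions at ESC, to 1 region at 1 locus and 0 at DE, and to 0 at GT. At PE 3 regions at 2 loci remained in each direction, and at PP 6 remained higher in knockout. Non-overlapping regions then numbered 10 and 3, and 6 cluster regions overlapped a list. Fewer regions pass by construction.

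The share of 200 kb stretches with a region was higher in each of the 10 lists when only stretches with a cluster region were counted. Adding 10 to the means, using region centres, merging within 500 bp or asking for an overlap of at least 250 bp left the results within 1.5 times or within their spread. Without 1 sample by column order, the median log2 ratio ranged from 0.71 to 0.84 in the knockout lists and from -0.77 to -0.62 in the control lists. No paired analysis was possible because the values carry no replicate numbers. Depth is unknown, and regions below the authors' threshold were not analysed here, so a region absent from a list is not shown to be alike between genotypes.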
